A study of Mus musculus with 6 samples.

Results

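The mouse replication-dependent histone genes of chromosome 13 were examined in ATAC-seq peak lists from intestinal crypts. Members were the protein-coding genes of GENCODE M21 whose symbol starts with Hist1h, 54 of 21938 protein-coding genes, and they lay on GRCm38 at chr13:21715763-23934851, a span of 2219 kb. They encode 6 linker histones (H1) and 48 core histones, with 13 H2A, 15 H2B, 9 H3 and 11 H4 genes, 29 on the plus strand and 25 on the minus strand. They fell into 4 groups separated by more than 100 kb, of 18, 5, 29 and 2 genes. The study compared crypts of WT mice with crypts of Arid3a cKO mice (VillinCre-ERT2+/-; Arid3a fl/fl), in which tamoxifen deletes Arid3a in cells that express Villin, the epithelial cells of the intestine. Both genotypes, with 3 samples each, received tamoxifen on 3 successive days, and crypts were taken 1 month after injections began. The labels gave no age for the mice, and did not state whether WT mice carried Cre or the floxed allele. ATAC-seq marks open DNA by the insertion of Tn5 transposase, and a peak is a stretch where the fragment pileup passes the level that the caller takes from the library around it.

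Core histones H2A, H2B, H3 and H4 form the protein spool of the nucleosome, and H1 binds the DNA between nucleosomes. The clustered genes are transcribed in S phase, when a dividing cell must package its newly copied DNA, and their short, intronless mRNAs end in a stem-loop instead of a poly(A) tail. Many H2A and H2B genes stand head to head and share one promoter between them. The lower part of the intestinal crypt holds rapidly dividing cells. A few members of the cluster are known as testis histones. Only chromatin was measured here, and neither RNA nor protein of these genes was analysed.

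The lists held 40492, 50704 and 55091 peaks in WT samples 1, 2 and 3 and 58297, 46415 and 51464 in cKO samples 1, 2 and 3. The pileup at each summit could be recovered from the fold and p columns as a whole number of fragments for 100% of peaks, and the lowest local background of a list, 1.75 to 2.29 fragments per base, gave its coverage. Epithelial and crypt markers were called in all 6 samples for 8 of 8 genes, from Epcam to Lgr5. Among leukocyte markers Ptprc was called in 1 sample, Itgam in 2 and Cd3e and Cd79a in 0, and a peak lay over the start of none of these 4 genes in any sample. Of 7 mesenchymal and endothelial markers 4 were called in all 6 samples, although a peak lay over the start of only 1 of them in all 6. Arid3a itself carried a peak in 3 of 3 samples of each genotype, which does not check the deletion.

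A member was called in a sample when the summit of a peak lay in the gene or within 1 kb of it and the gene's start was the nearest one, so that each peak counted for 1 gene. Between 36 and 38 members were called per WT sample (37.0 ± 1.0, SD, n = 3) and 35 or 36 per cKO sample (35.3 ± 0.58, n = 3). Of the 54 members 28 were called in all 6 samples (51.9%), 14 in some and 12 in none. Across all protein-coding genes 57.5% were called in all 6 samples and 30% in none. By class, 10 of 11 H4, 4 of 6 H1, 6 of 13 H2A, 4 of 9 H3 and 4 of 15 H2B genes were called in all 6. Of the 11 H2B genes outside that count, 8 had a start under a peak in every sample, and that peak was assigned to the partner across the shared promoter in 1 or more samples. In a count added after these calls were seen, which asked only whether a peak covered the start of a gene, 43 members had a covered start in all 6 samples (79.6%), against 54.8% of all protein-coding genes. By that count the classes lay close together, with 10 of 11 H4, 8 of 9 H3, 12 of 15 H2B and 10 of 13 H2A genes. The H1 class had 3 of 6, and Hist1h1d joined it when its RefSeq start was used, 1770 bp into the GENCODE gene, which was under a peak in all 6 samples.

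**Figure D1:**
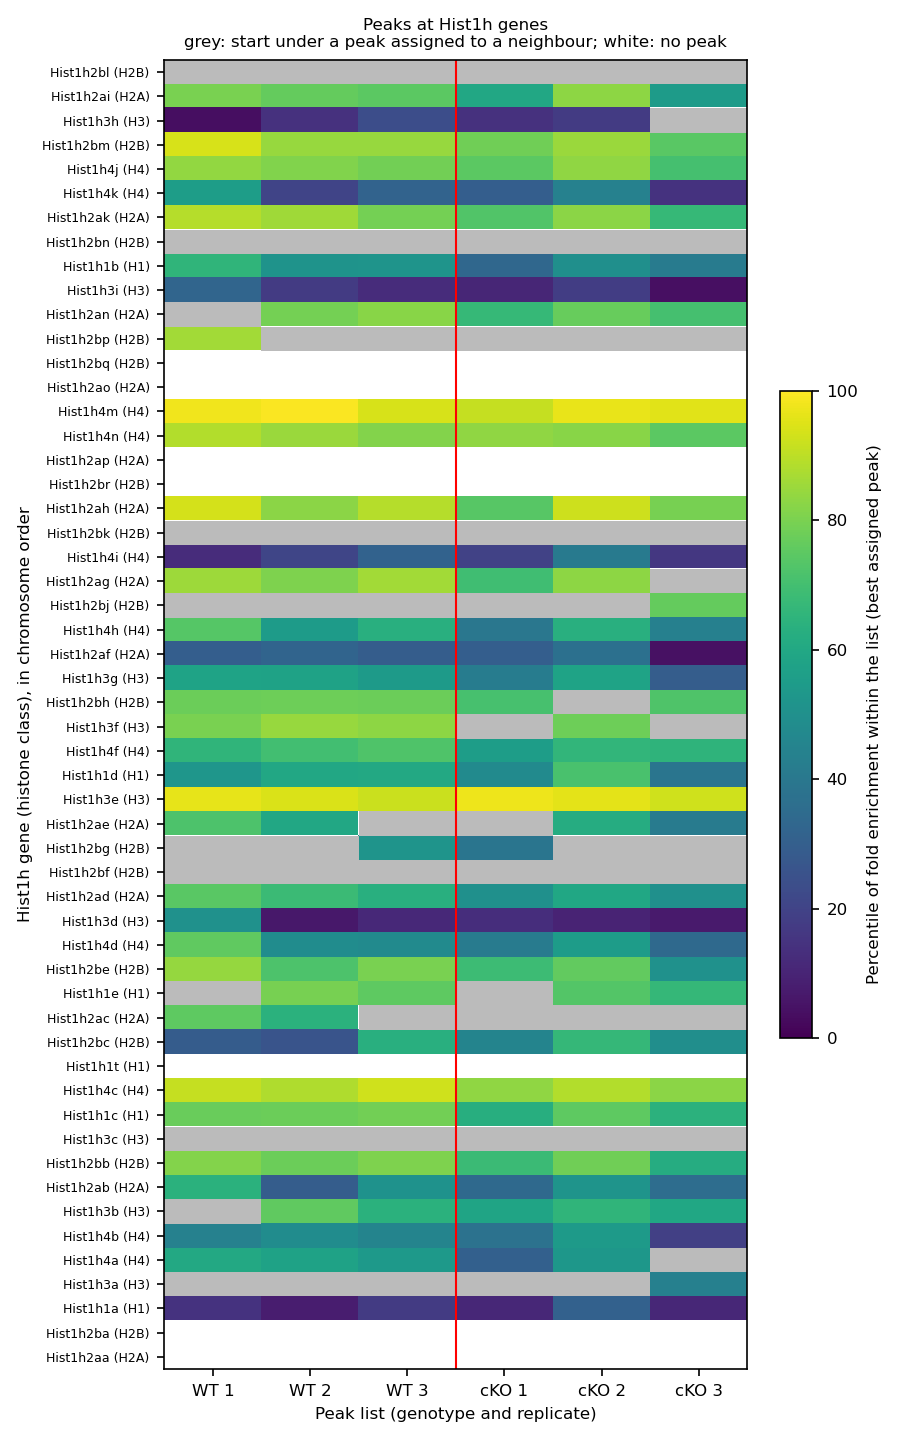
Peaks at the 54 Hist1h genes (rows, chromosome order) in the 6 peak lists (columns; WT 1 to 3 left of the line, cKO 1 to 3 right of it). Colour gives the percentile of fold enrichment within the list, from 0 to 100, of the best peak assigned to the gene; grey marks a start that lay under a peak assigned to a neighbouring gene and white a gene with no peak. The 7 genes that are white in every column are Hist1h2bq, Hist1h2ao, Hist1h2ap, Hist1h2br, Hist1h1t, Hist1h2ba and Hist1h2aa.

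With GENCODE and RefSeq starts together, 44 members had a start under a peak in all 6 samples, 3 in some and 7 in none. The 3 were Hist1h1b and Hist1h4i, covered in 5 samples each, and Hist1h3f, covered in 4. The 7 formed 2 sets. The first comprised Hist1h1t, the testis linker histone, and the adjacent pair Hist1h2ba and Hist1h2aa, which encode the testis forms of H2B and H2A. Between 82.9% and 100% of the 32-base words within 500 bp of these 3 starts occurred once on the chromosomes. The second comprised the pairs Hist1h2bq/Hist1h2ao and Hist1h2ap/Hist1h2br. These lay in an inverted repeat of 10523 identical bases, at chr13:21801258-21811780 and chr13:21832162-21842684, and 0% of the words at their 4 starts occurred once. In all 6 samples 0 summits lay in either copy of the repeat, and peaks of Hist1h4m and Hist1h4n reached into its edges by 48 to 182 bases. How the reads that fit both copies were treated is not given in the sources used here, so nothing can be read about these 4 genes from the absence of a peak. The bases before the RefSeq starts of the H2A genes of these 3 pairs without peaks (GRCm38.p6) are shown, 5′ to 3′ towards the gene, so that the testis promoter can be set beside the repeated one. Capitals mark matches on either strand to 3 motifs. These are the TATA box, searched as TATAAA, the CCAAT box, which NF-Y binds, and the octamer ATTTGCAT, which POU2F1 binds.
Hist1h2aa, chr13:23934187-23934436, plus strand: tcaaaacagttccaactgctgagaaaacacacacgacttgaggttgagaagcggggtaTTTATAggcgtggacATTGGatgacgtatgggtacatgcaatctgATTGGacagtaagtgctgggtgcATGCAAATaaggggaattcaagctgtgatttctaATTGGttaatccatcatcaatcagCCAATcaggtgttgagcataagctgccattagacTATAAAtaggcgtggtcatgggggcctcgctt
Hist1h2ap, chr13:21833476-21833725, minus strand: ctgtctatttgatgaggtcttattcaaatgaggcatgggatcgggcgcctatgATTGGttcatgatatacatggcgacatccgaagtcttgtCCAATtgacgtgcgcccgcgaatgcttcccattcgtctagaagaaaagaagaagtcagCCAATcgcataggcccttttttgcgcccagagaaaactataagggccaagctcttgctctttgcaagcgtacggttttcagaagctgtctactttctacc
Hist1h2ao, chr13:21810200-21810366, plus strand: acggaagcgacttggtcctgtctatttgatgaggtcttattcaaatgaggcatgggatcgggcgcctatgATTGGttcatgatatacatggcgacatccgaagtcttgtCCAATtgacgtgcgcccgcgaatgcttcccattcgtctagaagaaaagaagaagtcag
The testis promoter held 2 TATA boxes, 4 CCAAT boxes and 1 octamer in 250 bases. Within the bases shown, 3 CCAAT boxes lay before Hist1h2ap and 2 before Hist1h2ao, without a TATAAA or an octamer.

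The remaining 5 members that were called in no sample all had a start under a peak in 6 of 6 samples. In 4 cases the partner across a shared promoter took the peak: Hist1h2ai took that of Hist1h2bl, Hist1h2ak that of Hist1h2bn, Hist1h2ah that of Hist1h2bk and Hist1h2ad that of Hist1h2bf. The peak over Hist1h3c was assigned to Hist1h2bb, whose start is 1132 bp away. Members called in some samples followed the same pattern. The peak between Hist1h2ac and Hist1h2bc went to Hist1h2ac in 2 WT samples and to Hist1h2bc in the other 4 samples. Hist1h2ae and Hist1h2bg exchanged 1 peak, called for Hist1h2ae in 4 samples and for Hist1h2bg in 2. Hist1h2bp was called in 1 sample and its partner Hist1h2an in the other 5, and Hist1h2bj was called in 1 and its partner Hist1h2ag in 5. Of the other members called in some samples, Hist1h2bh was called in 5 and Hist1h3f in 4, Hist1h1e in 4, Hist1h3h, Hist1h3b and Hist1h4a in 5 each and Hist1h3a in 1. Summits lay near the starts: between 25 and 30 of the 38 to 41 peaks assigned to members in a sample had a summit within 200 bp of one, and the median distance per sample was 87.5 to 105 bp.

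Shared divergent promoters were counted as 1 unit for both genes, which removed the choice between partners. Each unit took the highest percentile assigned to either gene. There were 12 such pairs with starts at most 1 kb apart. In 11 an H2A gene faced an H2B gene at 176 to 306 bp, and in 1 Hist1h2bh faced Hist1h3f at 660 bp. The closest pairs left out by the limit were Hist1h3c with Hist1h2bb at 1132 bp and Hist1h3a with Hist1h1a at 1280 bp. Of the 12 pairs 9 had a peak in all 6 samples and 3 in none, namely the testis pair and both pairs of the repeat. Of the 30 members with a promoter of their own, 23 were assigned a peak in all 6 samples, 5 in some and 2 in none (Hist1h1t and Hist1h3c). These are counts of assignment, since the start of Hist1h3c and those of the 5 lay under a peak in every sample. A single peak covered both starts in 6 of 6 samples for 8 of the 9 open pairs, and in 3 samples for Hist1h2bh/Hist1h3f. The pair with the highest ranks was Hist1h2ah/Hist1h2bk, and the bases between its RefSeq starts are shown with the capitals defined above.
Hist1h2ah, chr13:22035644-22035820, minus strand: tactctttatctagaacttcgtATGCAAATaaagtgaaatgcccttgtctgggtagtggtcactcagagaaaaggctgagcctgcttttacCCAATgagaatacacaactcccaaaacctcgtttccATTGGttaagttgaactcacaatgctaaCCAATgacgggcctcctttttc
These 177 bases held 3 CCAAT boxes and 1 octamer. The percentiles of the pair were 93.4, 82.6 and 88.8 in WT and 73.9, 92.4 and 79.5 in cKO, where a percentile is the rank of the fold enrichment among all peaks of the same list, from 0 for the lowest to 100 for the highest. The genotypes overlapped. At the other end Hist1h2ae/Hist1h2bg reached 72.2, 59.9 and 51.6 in WT and 39.0, 61.8 and 41.7 in cKO.

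Shared promoters ranked above single promoters. All H1 and H4 genes had single promoters and the shared ones held mainly H2A and H2B genes, so promoter type largely followed histone class. The medians of the called shared promoters were 79.9, 79.0 and 79.0 in WT and 66.8, 77.9 and 67.0 in cKO. Those of the called single promoters were 65.4, 57.6 and 60.4 in WT and 41.8, 63.2 and 43.5 in cKO. The difference averaged 19.6 ± 4.43 percentile points (SD over 6 samples) and was positive in all 6 samples, from 14.5 points in WT 1 to 25.04 in cKO 1. Ranked by the pileup at the summit in place of fold enrichment, the difference had the same direction in all 6 samples and averaged 9.54 ± 2.05 points. Among promoters called in all 6 samples, single ones spread from a mean of 15.6 for Hist1h1a to 95.8 for Hist1h4m and shared ones from 54.4 to 85.1. These are descriptions without a test, since the genes share libraries and neighbourhoods.

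**Figure D2:**
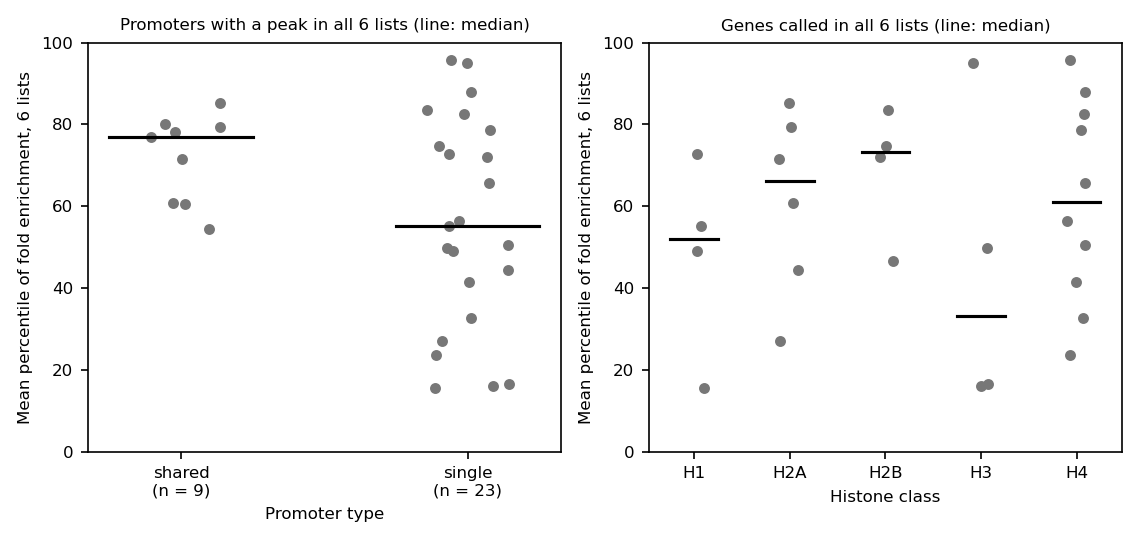
Mean percentile of fold enrichment over 6 samples (vertical axes, 0 to 100). Left, the 9 shared and 23 single promoters with a peak in all 6 samples, with medians at 76.9 and 55.2; right, the genes called in all 6 samples by histone class, with medians from 33.2 for H3 to 73.3 for H2B. Each point is 1 promoter or gene, and the lines are medians. The H3 and H2B medians rest on 4 genes each. Over all H3 genes called in a sample, medians were 54.1, 57.5 and 54.3 in WT and 28.2, 57.9 and 36.4 in cKO.

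The linker class ranked below the core class in 5 of 6 samples, with a mean difference of -9.03 ± 7.78 percentile points (SD over 6 samples). The difference was 5.38 points in the other direction in cKO 2, and the average turned to 0.421 when ranks were taken only among promoter peaks. That ranking left out peaks more than 1 kb from any GENCODE start, such as those of Hist1h1d, so its linker set was smaller. In the main ranking the medians covered the genes called in each sample, so the sets changed, with Hist1h1e missing in WT 1 and cKO 1. Over the 4 linker genes called in all 6 samples, medians were 59.1, 55.7 and 56.2 in WT and 40.6, 60.7 and 40.2 in cKO. Those of the 24 such core genes were higher in each sample, at 75.0, 68.8 and 67.8 in WT and 52.8, 66.4 and 50.5 in cKO. The highest of the linker genes called in all 6 samples was Hist1h1c, with 77.2, 77.6 and 78.7 in WT and 62.8, 75.0 and 64.5 in cKO. Hist1h1e had 79.6 and 75.4 in 2 WT samples and 73.2 and 66.7 in 2 cKO samples. In WT 1 and cKO 1 the peak over its start was assigned to Hist1h2be, whose GENCODE start at position 23621124 lies inside Hist1h1e. Hist1h1d had 52.7, 60.1 and 60.4 in WT and 47.7, 71.4 and 38.7 in cKO. Hist1h1b had 65.6, 51.3 and 51.9 in WT and 33.6, 49.99 and 41.6 in cKO, with the summit 904 to 1079 bp from the start, past the 3′ end of the gene. Hist1h1a was the lowest member of all that were called in 6 samples, with 14.8, 7.84 and 17.4 in WT and 11.1, 31.0 and 11.2 in cKO. The 200 bases before the starts of Hist1h1c, Hist1h1a and Hist1h1t are shown to compare these 3 linker promoters, with AAACACA (the H1 box) in capitals beside the TATA and CCAAT boxes.
Hist1h1c, chr13:23738607-23738806, plus strand: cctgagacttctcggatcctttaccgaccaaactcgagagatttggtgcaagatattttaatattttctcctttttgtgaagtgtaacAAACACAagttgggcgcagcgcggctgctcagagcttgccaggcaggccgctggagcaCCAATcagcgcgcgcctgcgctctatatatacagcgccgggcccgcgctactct
Hist1h1a, chr13:23763468-23763667, plus strand: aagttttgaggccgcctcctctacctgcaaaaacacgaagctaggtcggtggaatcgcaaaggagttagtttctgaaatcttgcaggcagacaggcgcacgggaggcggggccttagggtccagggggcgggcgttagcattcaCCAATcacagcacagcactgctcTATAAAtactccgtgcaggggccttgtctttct
Hist1h1t, chr13:23695611-23695810, plus strand: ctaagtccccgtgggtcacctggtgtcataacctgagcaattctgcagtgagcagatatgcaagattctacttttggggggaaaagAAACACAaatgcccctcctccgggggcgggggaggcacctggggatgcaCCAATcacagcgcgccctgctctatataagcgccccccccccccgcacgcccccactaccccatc
Each held 1 CCAAT box. An H1 box lay before Hist1h1c and Hist1h1t, and a TATAAA only before Hist1h1a among these 3.

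H4 genes, each with a promoter of its own, ranged in mean percentile from 23.6 to 95.8. Hist1h4m was the highest member, with 97.9, 99.5 and 93.9 in WT and 91.2, 96.8 and 95.7 in cKO (95.8 ± 2.95, SD over 6 samples). Only 5.59% of the words around its start occurred once. The start lies just inside the edge of the repeat, and words around it occurred up to 11 times. Its neighbour Hist1h4n had 2.80% and a mean of 82.5 ± 4.53. Hist1h4c followed with 91.2, 88.2 and 92.8 in WT and 83.4, 88.7 and 82.5 in cKO, and 82.7% of its words occurred once. The lowest H4 genes were Hist1h4i, with 12.5, 20.9 and 31.3 in WT and 19.6, 40.9 and 16.3 in cKO, and Hist1h4k, with a mean of 32.8 ± 15.1. The genotypes overlapped for each of these genes. The 200 bases before Hist1h4m, Hist1h4c and Hist1h4i are shown as the extremes of the class. Capitals mark GGTCCG (part of the H4 site bound by HINFP), the TATA and CCAAT boxes and the E2F letters TTCCCGC or TTTGGCG.
Hist1h4m, chr13:21811546-21811745, plus strand: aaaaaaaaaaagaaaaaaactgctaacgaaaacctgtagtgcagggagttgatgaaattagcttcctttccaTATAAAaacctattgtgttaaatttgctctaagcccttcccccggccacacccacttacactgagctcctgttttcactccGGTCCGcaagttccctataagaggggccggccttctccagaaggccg
Hist1h4c, chr13:23698459-23698658, minus strand: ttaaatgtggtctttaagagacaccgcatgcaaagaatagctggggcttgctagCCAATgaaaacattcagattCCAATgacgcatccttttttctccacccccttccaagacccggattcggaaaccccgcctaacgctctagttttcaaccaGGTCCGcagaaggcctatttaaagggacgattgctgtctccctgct
Hist1h4i, chr13:22041363-22041562, minus strand: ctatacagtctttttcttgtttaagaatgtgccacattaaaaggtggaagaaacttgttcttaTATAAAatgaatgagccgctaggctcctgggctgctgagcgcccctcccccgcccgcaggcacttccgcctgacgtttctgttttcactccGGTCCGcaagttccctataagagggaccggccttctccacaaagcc
All 3 held 1 GGTCCG, so the high and the low H4 promoters did not differ in it. A TATAAA was found before Hist1h4m and Hist1h4i, and 2 CCAAT boxes before Hist1h4c.

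Hist1h3e was the highest H3 gene, with 96.4, 94.5 and 91.9 in WT and 97.7, 96.1 and 92.9 in cKO (94.9 ± 2.19). The next of the H3 genes called in all 6 samples was Hist1h3g, with a mean of 49.8 ± 11.7. Hist1h3d had 50.4, 6.61 and 11.5 in WT and 13.1, 9.97 and 7.35 in cKO, so that WT 1 alone was high. Hist1h3i had 32.7, 17.4 and 12.8 in WT and 10.9, 17.995 and 4.06 in cKO. Hist1h3h, called in 5 samples, had a mean of 14.7 ± 7.17. The 200 bases before the highest and the lowest of the H3 genes called in all 6 samples are shown with TATAAA and CCAAT in capitals.
Hist1h3e, chr13:23562386-23562585, minus strand: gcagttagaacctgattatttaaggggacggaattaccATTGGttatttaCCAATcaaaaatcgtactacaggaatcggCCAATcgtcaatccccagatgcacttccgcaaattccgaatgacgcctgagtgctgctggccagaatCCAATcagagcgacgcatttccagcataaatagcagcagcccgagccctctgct
Hist1h3i, chr13:21783398-21783597, minus strand: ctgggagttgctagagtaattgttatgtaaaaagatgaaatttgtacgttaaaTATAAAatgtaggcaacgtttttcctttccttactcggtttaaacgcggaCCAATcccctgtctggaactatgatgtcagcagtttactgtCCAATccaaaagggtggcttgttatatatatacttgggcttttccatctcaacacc
Hist1h3e held 4 CCAAT boxes and no TATAAA, and Hist1h3i 2 CCAAT boxes and 1 TATAAA. Of the H2A genes called in all 6 samples Hist1h2ah (85.1 ± 7.73) and Hist1h2ak (79.4 ± 8.22) ranked highest, and Hist1h2af (27.0 ± 11.5) and Hist1h2ab (44.3 ± 13.3) lowest. Of the 4 H2B genes Hist1h2bm had a mean of 83.5 ± 6.60, Hist1h2bb 74.7 ± 7.75, Hist1h2be 71.9 ± 11.8 and Hist1h2bc 46.5 ± 16.9. The value of Hist1h2bc mixed 2 peaks, since in WT 1 and WT 2 the shared peak was assigned to Hist1h2ac and a weaker peak in the body of Hist1h2bc was ranked in its place. That of Hist1h2be also mixed peaks, since in WT 1 and cKO 1 the peak at Hist1h1e was its best.

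The promoter windows of 51 of the 54 members were found in RefSeq (GRCm38.p6), 52 windows of 250 bases before to 50 after a start, and were searched on both strands without mismatches. Exact CCAAT was present in 84.6% of them, against 38.2% of 21263 promoter windows of all protein-coding genes. It was found in every H1, H2A, H2B and H3 window searched and in 3 of 11 H4 windows. TATAAA was present in 59.6% against 12.6%, and the octamer in 21.2% against 1.66%. The octamer was limited to H2A (5 of 13) and H2B (6 of 15) windows, several of which are the same DNA read from both sides. GGTCCG was found in 10 of 11 H4 windows and in 2 others, 23.1% of the member windows against 10.5% of all. The E2F letters were in 5 of 11 H4 windows and in none of the other classes, and over all members their share of 9.62% lay near the 7.58% of all windows. The H1 box was in 5 of 6 H1 windows, 2 H2A and 2 H2B windows, 17.3% against 6.15%. GGGCGG, a site of the SP and KLF factors, was in 36.5% against 46.2%. ATCAAA or ATTAAA, letters of the ARID3 motif, were in 51.9% against 19.3%. By class they were in 1 of 6 H1, 7 of 13 H2A, 10 of 15 H2B, 5 of 7 H3 and 4 of 11 H4 windows. For every motif both windows of a shared promoter were counted, so some H2A and H2B matches are the same DNA. The A+T content of the windows was not taken into account. The AP-1 letters TGACTCA or TGAGTCA were in 0 of 52 windows against 4.66%. A match is a description of the letters and not a bound site.

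**Figure D3:**
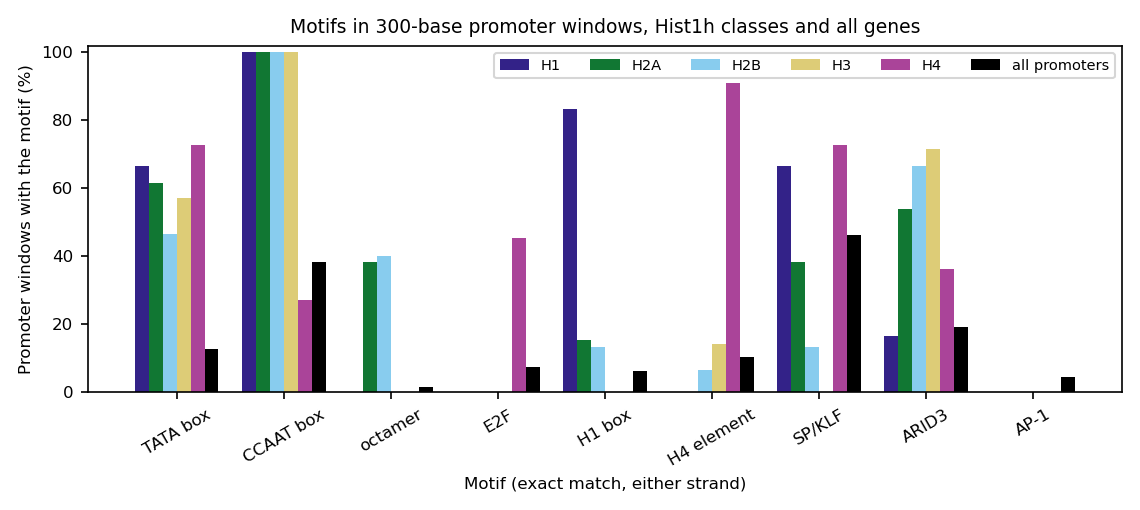
Share of promoter windows (vertical axis, %) that hold an exact match to each of 9 motifs (horizontal axis) in the H1, H2A, H2B, H3 and H4 windows and in all 21263 windows (black). The CCAAT box was in all windows of 4 classes but only 3 of 11 H4 windows, while the H4 element was in 10 of 11 H4 windows.

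Members differed less in pileup than in fold enrichment, and the local background at the cluster was high. Fold enrichment is the summit pileup plus 1 divided by the local background plus 1. The median local background of the peaks assigned to members was 8.29, 11.4 and 15.2 fragments in WT and 26.9, 9.97 and 21.3 in cKO. At all peaks within 1 kb of a protein-coding start it was 6.23, 7.50 and 9.72 in WT and 14.6, 6.45 and 11.5 in cKO. The ratio of the former to the latter was 1.33, 1.52 and 1.56 in WT and 1.84, 1.54 and 1.85 in cKO. Of the 28 members called in all 6 samples 26 had a mean ratio above 1. The exceptions were Hist1h4m (0.524) and Hist1h4n (0.623), the members beside the repeat. The highest ratios, 2.45 to 2.65, belonged to Hist1h3i, Hist1h2ad, Hist1h3g, Hist1h4h, Hist1h2af and Hist1h2bc. Across these 28 genes the mean percentile by fold fell with the ratio (Spearman's rho -0.729), whereas the mean percentile by pileup showed a rho of 0.199 with it. Since the background is the divisor in the fold, the negative rho for fold follows in part from the arithmetic. These are descriptions across genes that share libraries and neighbouring background windows.

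The change of rank with the measure was large for single genes. Hist1h1a had summit pileups of 42, 57 and 84 fragments in WT and 136, 70 and 106 in cKO over backgrounds of 11.1, 16.0 and 20.9 and of 38.7, 14.4 and 29.6. Its mean percentile was 15.6 by fold and 75.4 by pileup. Hist1h3i moved from 16.0 to 77.4 and Hist1h2af from 27.0 to 82.9. Hist1h4m went the other way, from 95.8 to 76.2, with pileups of 40, 85 and 88 in WT and 123, 75 and 91 in cKO. By pileup the 28 members lay between 70.9 and 93.6, and by fold between 15.6 and 95.8.

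**Figure D4:**
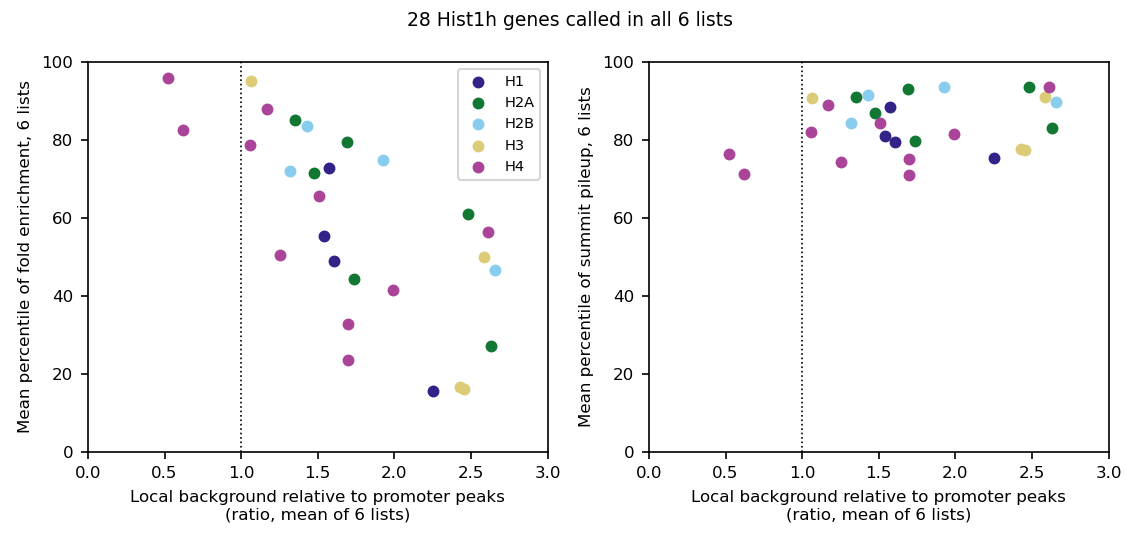
The 28 members called in all 6 samples, coloured by histone class. Horizontal axes, local background at the gene's best peak divided by the median at promoter peaks of the same list, mean of 6 lists (dotted line at 1); vertical axes, mean percentile within the list by fold enrichment (left) and by summit pileup (right). By fold the genes spread from 15.6 to 95.8 and lie lower where the ratio is higher, and by pileup they lie between 70.9 and 93.6.

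The genotypes were compared to ask whether accessibility at the histone cluster differed in Arid3a cKO crypts. The call of a member separated the genotypes in no case: 0 members had calls in every cKO sample without any in WT, against 0.0775% of all genes, and 0 the reverse, against 0.041%. With WT 3 left out, Hist1h2ac was called in WT alone, and with cKO 2 left out Hist1h3f was, although the promoter that each shares with its partner had a peak in all 6 samples. The median percentile over the 28 members called in all 6 samples was 74.0, 64.1 and 63.1 in WT and 48.9, 66.4 and 49.9 in cKO. The mean was 67.1 ± 6.03 in WT and 55.1 ± 9.83 in cKO (SD, n = 3), and the genotypes overlapped since cKO 2 lay among the WT samples. The difference of the medians, -12.0 points, became -18.4 when cKO 2 was left out and -8.77 when cKO 3 was left out. Over all genes called in 6 samples the medians were 80.9, 84.0 and 85.1 in WT and 84.3, 83.1 and 82.2 in cKO. The mean of the cKO samples was below the mean of the WT samples for 24 of 28 members, with a median difference of -8.09 points. The exceptions were Hist1h2bc, whose peaks differed between samples as described, Hist1h3e, Hist1h1a and Hist1h4i. Among all 12605 genes called in 6 samples it was below for 54.6%, with a median difference of -0.44 points.

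This direction depended on the measure. Ranked by summit pileup, the medians were 80.3, 80.8 and 84.2 in WT and 87.8, 83.4 and 84.8 in cKO, and the cKO mean was below the WT mean for 0 of 28 members, against 32.8% of all genes. The median difference over the members was then 2.83 points, and 0.852 over all genes. The local background moved with the lower fold ranks. Its ratio to that at promoter peaks was highest in cKO 1 and cKO 3, the samples with the lowest fold ranks, and it was 1.54 in cKO 2. The background also differed between whole lists. At all promoter peaks its median, divided by the coverage of the list, was 2.96, 4.12 and 4.83 in WT. It was 6.40, 3.69 and 5.28 in cKO. The fold medians of the members ran in the reverse order of these values over all 6 samples, also within WT. The part of either background measure in the difference between genotypes was not tested.

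**Figure D5:**
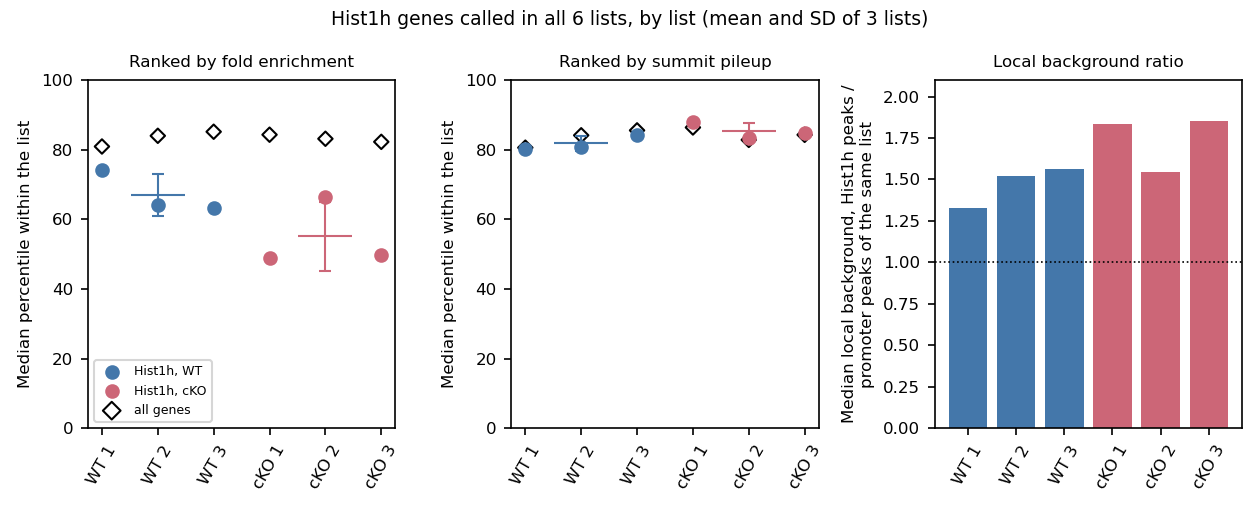
Values by sample, WT in blue and cKO in red. Left and middle, median percentile within the list (0 to 100) of the 28 Hist1h genes called in all 6 samples, ranked by fold enrichment and by summit pileup, with the mean and SD of 3 samples as bars and the median of all genes called in 6 samples as diamonds; right, median local background at Hist1h peaks divided by that at promoter peaks of the same list. By fold the members lie below all genes and lowest in cKO 1 (48.9) and cKO 3 (49.9); by pileup they lie at 80.3 to 87.8, near all genes.

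In limma, fitted to the logit of the percentile over all 12605 genes with a peak in 6 samples, 0 of the 28 members passed an adjusted p of 0.05. Across all genes 0% passed as higher and 0% as lower in cKO, the smallest adjusted p being 0.746. At an unadjusted p under 0.05 there were 694 genes, 5.51%, of which 1 was a member, Hist1h2ad. With cKO 2 left out these were 2285 genes, 17.9%, and 11 of 29 members. With WT 3 left out they were 947 genes, 7.50%, and 4 of 28 members. Leaving out WT 1, WT 2, cKO 1 or cKO 3 gave 0 members, with 2.36% to 3.78% of genes. In simulated data with a shift of 2 on the log2 logit scale the same fit recovered 21 of 100 shifted genes, and 0 of 100 at a shift of 1. Ranked by pileup, 0 members passed in limma as well, and 3 of 28 had an unadjusted p under 0.05, among 388 of all genes, 3.08%. These were Hist1h2bc, whose value mixed 2 peaks as described, Hist1h3e and Hist1h1a.

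The percentile by fold lay below every WT sample in all cKO samples for 3 of 28 members, against 7.5% of all genes. None lay above, against 4.05% of all genes. Hist1h2ad, an H2A gene facing Hist1h2bf, had 74.5, 68.1 and 62.9 in WT and 50.1, 59.4 and 50.3 in cKO, a difference of -15.2 points (limma log2 logit difference -0.94 ± 0.40, SE; adjusted p = 0.746). The linker gene Hist1h1b, with the values given above, differed by -14.5 points (-0.86 ± 0.47; limma adjusted p = 0.746). The linker gene Hist1h1c differed by -10.4 points (-0.74 ± 0.38; limma adjusted p = 0.746). By pileup these 3 differences were 0.472, 2.20 and 1.01 points, with the opposite sign. Among all 28 members by pileup, 0 lay below every WT sample in all cKO samples, against 1.99% of all genes, and 3 lay above, against 5.9%, namely Hist1h4j, Hist1h3e and Hist1h1a.

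Other histone genes gave a point of comparison. The 13 protein-coding Hist2h, Hist3h and Hist4h genes, which are also replication-dependent but lie on other chromosomes, had a start under a peak in all 6 samples in 13 of 13 cases. Calls in all 6 samples were made for 6 of them, whose median percentile averaged 83.9 over the samples, against 61.1 for the members. Hist2h2ac and Hist2h2bb were called in 5 samples, Hist2h3c2 in 3, Hist2h2ab and Hist2h3b in 1, and Hist2h2be and Hist2h3c1 in 0. All 11 replication-independent histone genes, such as H3f3a and H2afz, which are transcribed outside S phase too, were called in all 6 samples, with an average median of 73.9. Of 22 genes for the transcription of histone genes, the processing of their mRNA and the deposition of histones, 18 were called in all 6 samples with an average median of 89.9, and 22 had a covered start in all 6. They included Hinfp (96.9 ± 1.14, SD over 6 samples), the H4 promoter factor, and Slbp (93.7 ± 2.00), which binds the stem-loop of the mRNA. The exceptions in calls were Zfp473, called in 5 samples, Npat, called in 2 WT samples, and Cpsf3 and Hira, called in none, and all 4 had a start under a peak in 6 samples. The percentiles in this comparison are by fold enrichment, and summit pileup and local background were not compared between these lists. No test was made between these lists.

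Between the groups of histone genes lay 49 other protein-coding genes, of which 10 were called in all 6 samples and 34 in none. Of the 36 vomeronasal receptor genes (Vmn1r) 32 were called in none. The genes called in all 6 included Zfp184, Zfp322a, Abt1, Btn2a2 and Hfe, the last an iron regulator. Of the members of the longest group, the 29 genes from Hist1h4h to Hist1h1a over 233 kb, 17 were called in all 6 samples. The 18 genes from Hist1h2bl to Hist1h2br, over 122 kb, had 9 called in all 6 and 6 in none, of which 4 were in the repeat. By fold enrichment, median percentiles of the called members were higher in the group of 18 than in the group of 29 in all 6 samples. They were 83.7 against 72.9 in WT 1 and 68.7 against 46.4 in cKO 3. By summit pileup the medians had the reverse order in WT 1 and cKO 3. The background ratio was 2.48 to 2.65 for Hist1h2ad, Hist1h3g, Hist1h4h, Hist1h2af and Hist1h2bc of the group of 29. The group of 18 held Hist1h4m (0.524) and Hist1h4n (0.623), but also Hist1h3i (2.45). The part of the background in this order was not tested.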

How the data were processed

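Nuclei of dissociated crypt cells were tagmented with Tn5, and reads were processed with the nf-core ATAC-seq pipeline, with trimming, BWA alignment to GRCm38, filtering, a blacklist and MACS narrow peaks called per sample, without a control library. The deposited lists give per peak a fold (the ratio of pileup to local background) and the authors' −log10 p and −log10 q, used only within a list. Chromosomes 1 to 19, X and Y were kept. Pileups were solved from fold and p, within 0.1 of a whole number. Gene starts were those of protein-coding GENCODE M21 transcripts. limma 3.58.1 (R 4.3.3, genotype only, with a mean trend) with Benjamini-Hochberg adjustment over all genes was tested on simulated data. Other steps used Python 3.11.15, numpy 2.4.6, pandas 2.3.3, scipy 1.17.1 and matplotlib 3.10.9. Named were all linker genes, the 2 highest and 2 lowest of each core class, members called in 0 to 5 samples, and members whose genotypes did not overlap. Members and lists were chosen with earlier results of these data known. The labels do not say that each sample is 1 animal, so p-values measure the spread between samples. With 3 against 3 an exact permutation test cannot go below 0.1. Alternatives changed the rank measure, peak threshold, list length, window, assignment, gene starts, filter and samples. Total read numbers were not used here. One marker gene is not reported here.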

Additional observations from a re-analysis of the deposited data

How the results depend on the processing

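The count of 28 members called in all 6 samples rose to 43 both when each peak counted for every gene in reach and when any base of a peak over the start was enough, the latter chosen after seeing the data. It was 28 to 31 when 1 sample was left out. The difference in median percentile between genotypes, -12.0 points, became 1.18 when peaks were ranked by −log10 q and 3.59 when ranked by summit pileup, was -18.1 with lists of equal length, and was -18.4 (without cKO 2) to -8.77 (without cKO 3) when 1 sample was left out. The difference of linker from core genes, -9.03, turned to 0.421 among promoter peaks, where fewer linker genes were ranked, and leaving out 1 sample gave -11.9 to -7.58. The difference of shared from single promoters, 19.6, was 10.5 by −log10 q, 9.54 by pileup and 24.3 with lists of equal length, and 18.6 to 20.7 without 1 sample. The cause of these shifts was not tested. By pileup, the differences of Hist1h1b, Hist1h2ad and Hist1h1c became 2.20, 0.472 and 1.01. Genes called in one genotype alone numbered 26 among all genes, 15 when each peak counted for every gene in reach, and 71 to 114 when 1 sample was left out, since fewer samples then had to concur, with 0 to 1 member. limma called 0 genes under all alternatives that kept 6 samples, 2 without WT 1 and 1 without cKO 3, with 0 members under any alternative run. With the replicate number as a block it called 0 genes and 0 members, with 539 genes at an unadjusted p under 0.05. Deviations from the genotype means gave correlations of -0.296, -0.0255 and 0.127 between samples with the same number. Between samples with different numbers they were -0.346 to 0.318. With 3 samples per genotype these values cannot decide whether equal numbers share a litter or day, which the labels do not state. RefSeq starts of the members, also added after seeing the data, left the direction of every difference as it was. Depth was read from the lists alone.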
